A study of Rattus norvegicus with 12 samples.

Results

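Among 17254 transcripts listed for whole rat lung, 117 (0.678%) were listed at exactly 0 in at least 3 of the 12 libraries while reaching 5 or more in at least 3 others. These on-off transcripts were chosen by that rule from the values of all 12 libraries, without use of the group labels, so their zeros and high values are a description and not a result. The unit is taken to be FPKM, a fragment count scaled by transcript length and library size, and the values of a group are given for replicates 1 to 3 in turn. The libraries came from adult rats of the strain labelled SD, randomly assigned to 4 groups of 3 libraries and treated for 2 weeks. Rats of group N lived in air with 21% oxygen at an altitude of 400 m. Rats of group H lived in a chamber at 405 mmHg, which imitates 5000 m. Rats of groups C3 and I3 lived as those of H but were given 42% oxygen for 3 h of each day, continuously in C3 and intermittently in I3. The study asked whether the intermittent schedule can prevent the pulmonary hypertension of high altitude. Whether the 3 libraries of a group came from 3 animals is not stated, and p-values measure only their spread, which may be technical.

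One gene can give several transcripts through alternative start sites, splicing and ends, and these transcripts have most of their exons in common. A short read from a common exon does not show which transcript it came from, so programs that estimate transcript abundance divide such reads among the candidates. A transcript may therefore be listed at 0 in a library in which the gene itself is expressed, and a 0 may also be a failed estimate. In whole tissue, fewer cells of a type and less RNA per cell cannot be told apart either. The table pairs no transcript with a gene, and the reference listed rat Ensembl identifiers in 0 rows. Gene names, roles and sequences are therefore not given, and the lung identity of the libraries could not be checked against marker genes.

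The 117 transcripts were mostly at 0 in a minority of the libraries. They were at 0 in 3 libraries in 21 cases, in 4 in 39, in 5 in 16, in 6 in 10, in 7 in 11, in 8 in 11 and in 9 in 9. Of their 1404 values, 605 (43.1%) were 0, 567 (40.4%) were 5 or more and 232 (16.5%) lay in between. The name on-off is thus strict for 42 transcripts, which had no value between 0 and 5. The other 75 had at least 1 intermediate value, and 96 of the intermediate values were below 1. In the table as a whole, 924 transcripts were at 0 in at least 3 libraries, and in the 807 of them outside the rule the third-highest value had a median of 0.76 FPKM. At the edge of the rule, ENSRNOT00000042177 and ENSRNOT00000058917 were just inside, with third-highest values of 5.003 and 5.02 FPKM. ENSRNOT00000042799 and ENSRNOT00000084480 were just outside, at 4.999 and 4.94 FPKM.

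**Figure D1:**
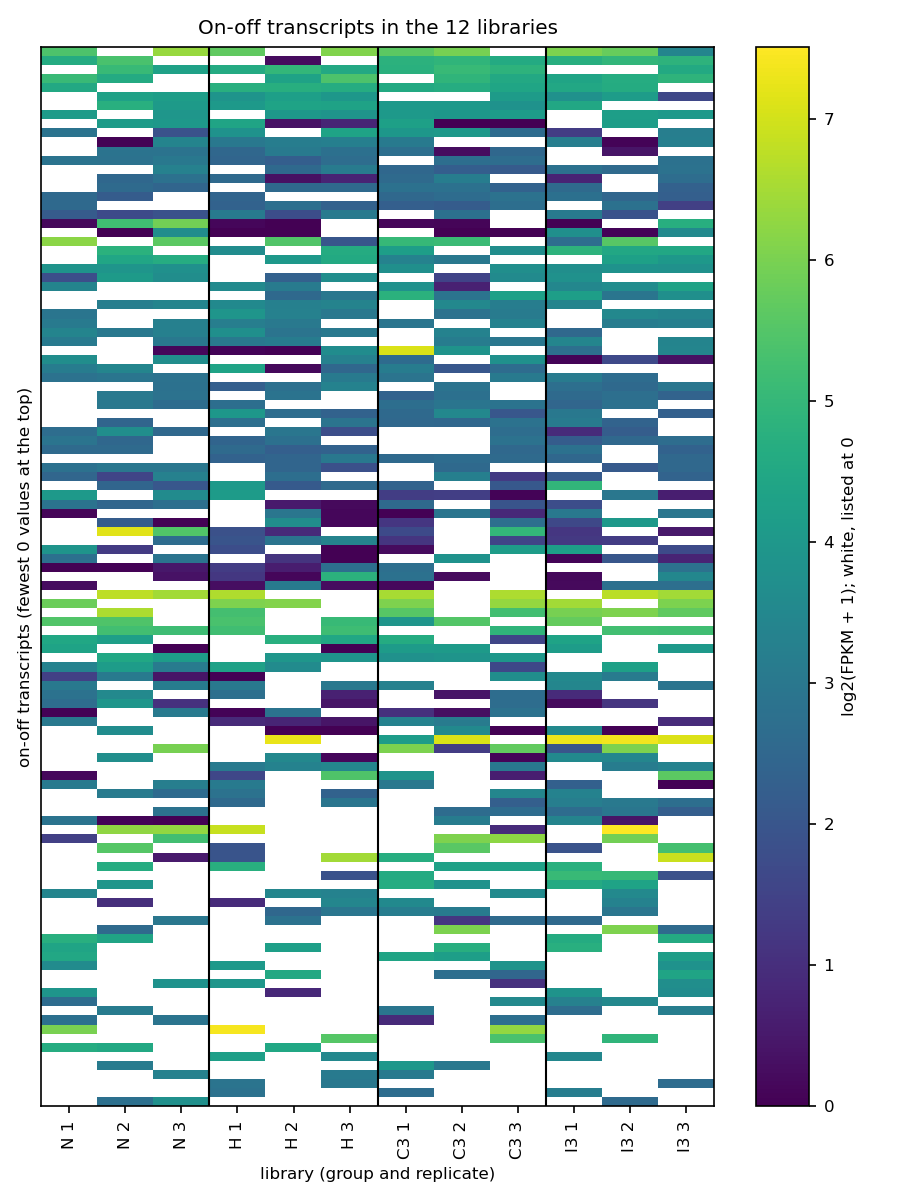
Each row is 1 of the 117 on-off transcripts and each column 1 of the 12 libraries, with black lines between the groups N, H, C3 and I3; colour gives log2(FPKM + 1) and white a value of 0. White cells are spread over all 12 columns, with between 40 and 58 per library, and do not fill blocks that end at the group lines.

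The level when present was steady in some of these transcripts and not in others. For the 42 transcripts without intermediate values, the highest value was 1.14 to 13.1 times the lowest value above 0, with a median ratio of 1.53, and 30 of them stayed under 2. The absence of values between 0 and 5, by which these 42 were picked, itself keeps the ratio low. In the other 75 transcripts the ratio started at 1.49 and had a median of 17.3, with 11 under 2 and 26 over 100. The lowest ratio was that of ENSRNOT00000025812, over 3 values, at 24.1 and 21.9 FPKM in N replicates 1 and 2, at 21.2 in H replicate 2 and at 0 in the other 9 libraries. ENSRNOT00000085975 stood at 16.4, 0 and 14.4 FPKM for N, 0, 15.1 and 13.9 for H, 15.6, 14.6 and 16.3 for C3, and 0, 17.3 and 15.8 for I3. Its 9 values above 0 spanned 13.9 to 17.3 FPKM, and each of the groups N, H and I3 held 1 library at 0. ENSRNOT00000016184 stood at 22.1, 0 and 0 FPKM for N, 25.8, 25.1 and 24.1 for H, 22.5, 23.9 and 20.5 for C3, and 21.5, 23.4 and 0 for I3. ENSRNOT00000075280 stood at 0, 36.6 and 35.4 FPKM for N, 36.1, 0 and 35.4 for H, 0, 0 and 28.9 for C3, and 0, 36.5 and 36.0 for I3. In both, libraries at 0 stood beside libraries of the same group at the full level. Over all 117 transcripts, the coefficient of variation across the libraries with 5 or more had a median of 17.1%, and its range was 3.32% to 159%. The same measure had a median of 15.6% over the 10256 listed transcripts with at least 3 such values, 43.9% of which lay above the median of the on-off transcripts.

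**Figure D2:**
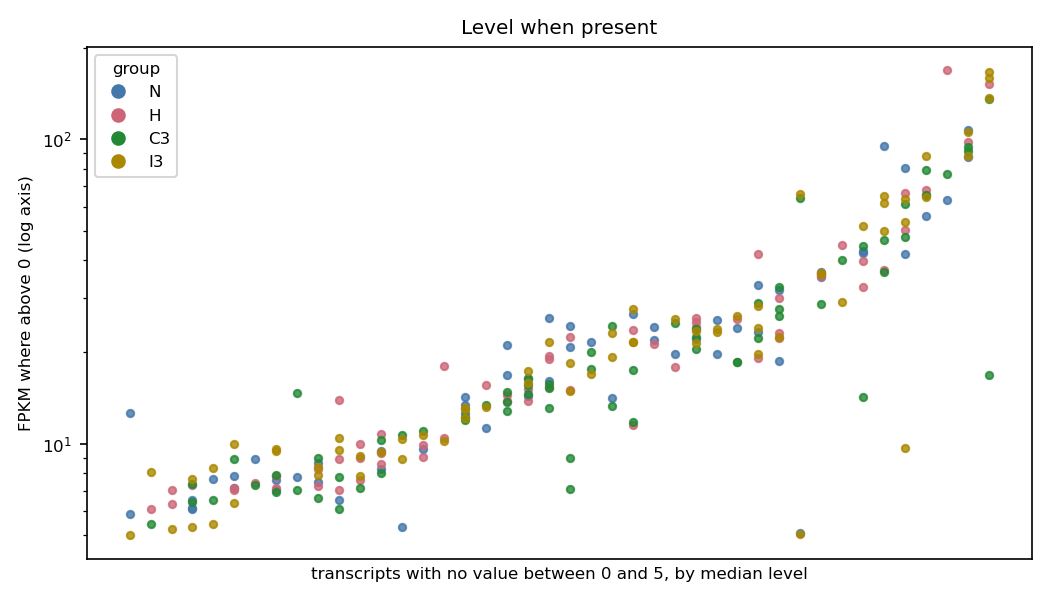
Each column of points is 1 of the 42 transcripts with no value between 0 and 5, ordered by median level; points are the libraries above 0, coloured by group, on a log axis of FPKM. In most columns the points lie close together and mix the groups (the median ratio of highest to lowest is 1.53), while a few columns hold a point far below the rest.

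The median level over the libraries above 0 was 7.72 FPKM for the typical on-off transcript and ranged from 0.00557 to 144 FPKM. It was 20 or more in 27 transcripts and below 5 in 28. The on-off transcripts summed to between 747 and 1335 FPKM per library, or 0.219% to 0.396% of all listed values.

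Absence did not follow the groups for any on-off transcript. A transcript was counted as following the groups when the 3 libraries of each group were either all at 0 or all above 0, and 0 of 117 did so. With 4 groups of 3, only transcripts at 0 in 3, 6 or 9 libraries can do so, and these numbered 21, 10 and 9. For the other on-off transcripts the outcome was fixed by their number of zeros. In 5 transcripts 1 group held both kinds of library, in 33 transcripts 2 groups did, in 49 transcripts 3 groups did, and in 30 transcripts all 4 groups did. Among the 807 transcripts at 0 in at least 3 libraries but outside the rule, 7 (0.867%) followed the groups, and none of their values exceeded 3.27 FPKM. The 807 include 121 transcripts at 0 in 10 or more libraries, which could not follow the groups either, so this share is background only. The count of 0 among on-off transcripts became 1 without N replicate 3, without H replicate 1 or without C3 replicate 2, and 2 without I3 replicate 2.

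Whole groups at 0 did occur, in 34 of the 117 transcripts, always beside another group that was split. N was wholly at 0 in 13 transcripts, H in 14, C3 in 6 and I3 in 8, and 7 transcripts had 2 such groups. Split groups were more frequent: N was split in 88 transcripts, H in 76, C3 in 88 and I3 in 86. With 43.1% of the values at 0, many sets of 3 libraries would be split whatever their labels. The counts of whole and split groups are therefore a description only. Each of the 13 transcripts wholly at 0 in N was also at 0 in 1 to 6 of the hypoxic libraries. Not a single transcript was at 0 in all N libraries and above 0 in all 9 hypoxic ones (0 of 117), and the opposite pattern was equally missing (0 of 117). The first pattern needs exactly 3 libraries at 0, as 21 of the 117 had, and the opposite one exactly 9, as 9 had.

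The identity of the libraries at 0 was nearly different for every transcript. The 117 transcripts showed 114 distinct sets of libraries at 0, 3 of which were shared by 2 transcripts each. Libraries of the same group had 22.25 ± 4.35 transcripts at 0 in common (SD, 12 pairs of libraries, range 15 to 29). Libraries of different groups had 22.28 ± 3.45 in common (SD, 54 pairs, range 14 to 32), so membership of a group did not go with more shared absences. Pairs of libraries are not independent of each other, and no test was made. Shared absences numbered 24 to 29 between N libraries, 21 to 28 between H libraries, 15 to 25 between C3 libraries and 18 to 23 between I3 libraries.

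**Figure D3:**
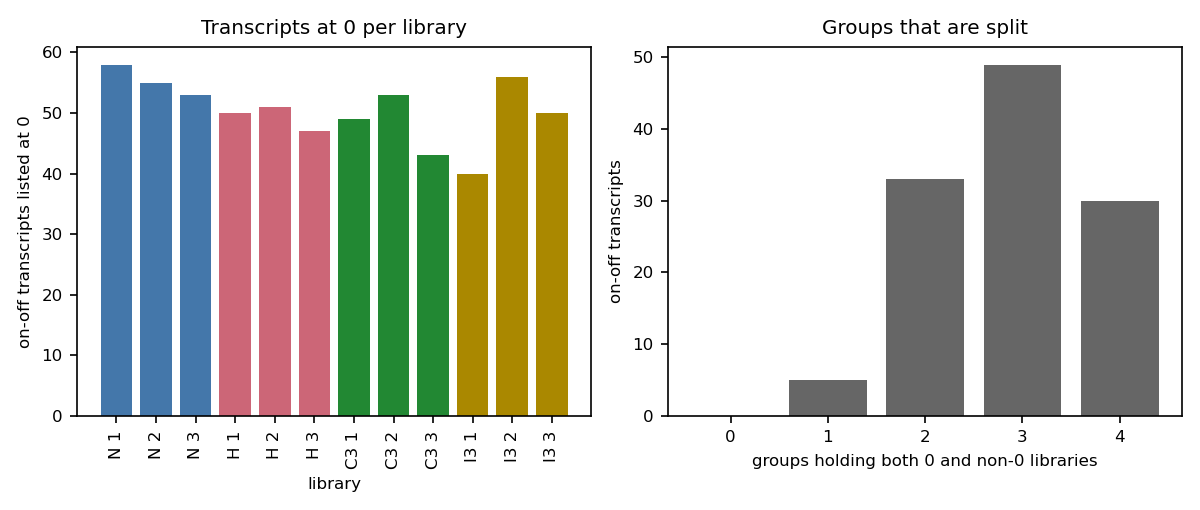
Left, the number of on-off transcripts listed at 0 in each library, coloured by group; right, the number of on-off transcripts by how many of the 4 groups held libraries both at 0 and above 0. The libraries range from 40 (I3 replicate 1) to 58 (N replicate 1), and the right panel has 0 transcripts at no split group and 49 at 3 split groups.

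The number of zeros per library was then compared between the groups over the whole table. The N libraries had 593, 543 and 570 transcripts at 0, the H libraries 543, 501 and 517, the C3 libraries 560, 535 and 499, and the I3 libraries 556, 566 and 538. The ranges of H and N met at 543, those of C3 and I3 overlapped both, and the exact permutation test over all ways of dividing the 12 libraries into 4 groups of 3 gave p = 0.131. Exact two-sided permutation tests of the 6 pairs gave p-values of 0.2 to 0.8, or 0.4 to 0.8 after Benjamini-Hochberg adjustment, where the smallest that 3 against 3 libraries allow is 0.1. The largest difference, of H against N, was -48.3 transcripts (520 against 569 on average), with p = 0.2 in the exact permutation test.

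In 5 transcripts a single library kept absence from following the groups. ENSRNOT00000091068 stood at 13.4, 14.2 and 12.6 FPKM for N, at 0 in all 3 H libraries, at 12.3, 0 and 12.01 for C3, and at 12.1, 13.1 and 13.0 for I3. It was listed in every library outside H except C3 replicate 2, and its values above 0 spanned 12.01 to 14.2. ENSRNOT00000012321 was at 0 in all 3 N libraries, at 4.13, 4.46 and 7.02 FPKM for H, at 4.91, 5.30 and 5.09 for C3, and at 4.66, 0 and 4.76 for I3. ENSRNOT00000042547 was likewise at 0 in all 3 N libraries, at 14.7, 5.41 and 4.12 FPKM for H, at 4.99, 10.3 and 3.13 for C3, and at 7.01, 0 and 3.89 for I3. Both lacked a value in I3 replicate 2 and in no other hypoxic library. ENSRNOT00000076987 was at 0 in all 3 N libraries, at 0, 4.88 and 6.81 FPKM for H, at 26.7, 6.48 and 18.2 for C3, and at 17.5, 6.60 and 12.5 for I3. Here the library that departed was H replicate 1. ENSRNOT00000081240 was at 7.87, 9.62 and 0 FPKM for N, 19.5, 0.117 and 4.70 for H, 7.98, 3.11 and 5.25 for C3, and 0 in all 3 I3 libraries. N replicate 3 was its one library at 0 outside I3.

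**Figure D4:**
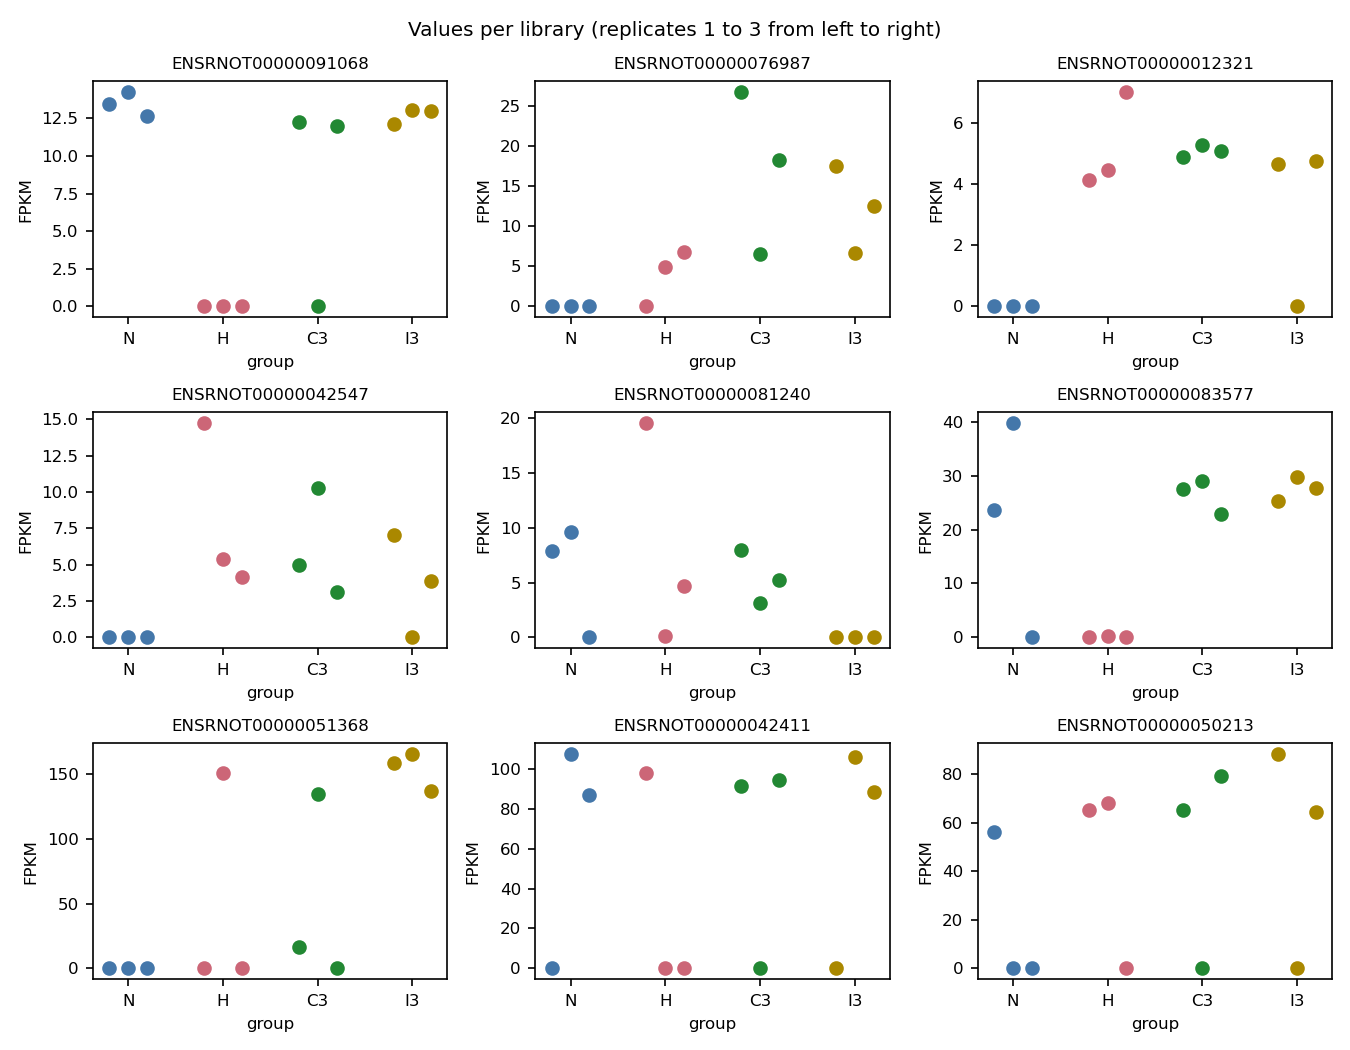
FPKM of 9 on-off transcripts in the 12 libraries, with the groups N, H, C3 and I3 along the x axis and replicates 1 to 3 from left to right; each point is 1 library. In the first 5 panels 1 library departs from a pattern by group (C3 replicate 2 at 0 for ENSRNOT00000091068), while in the last panels libraries at 0 and at the full level stand side by side within groups.

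Differences between the groups were tested with limma on log2(FPKM + 1) over all 15435 transcripts that reached 1 or more in 3 or more libraries. All 117 on-off transcripts passed this filter, because the rule requires values of 5. At a Benjamini-Hochberg adjusted p below 0.05, limma called 1 on-off transcript in C3 against N, where 1.09% of all transcripts were called. These 168 calls over all transcripts became 25 with the replicate block and 44 with C3 and N fitted alone. Dropping C3 replicate 2 left 21 calls, C3 replicate 1 left 35 and C3 replicate 3 left 56, while dropping N replicate 2 left 28 and N replicate 3 left 44. Dropping H replicate 2, I3 replicate 2 or I3 replicate 3 left 105, 111 and 108. Limma called 0 in H against N (0.337% of all), I3 against N (0.0907%), C3 against H (0.013%), I3 against H (0.0324%) and I3 against C3 (0.00648%), and 0 in the moderated F test over the 4 groups (0.22%). These shares moved as well. The 52 calls over all transcripts in H against N became 28 with the replicate block and 19 to 58 without each library. The 5 in I3 against H became 26 with these groups fitted alone. At an unadjusted p below 0.05, limma gave 16 on-off transcripts in H against N (10.4% of all transcripts), 11 in C3 against N (17.4%), 15 in I3 against N (10.8%) and 11 in C3 against H (6.86%). It gave 13 for I3 against H (5% of all), 8 for I3 against C3 (6.65%) and 12 in the F test (11.9%). As shares of the 117, these are 13.7%, 9.40%, 12.8%, 9.40%, 11.1%, 6.84% and 10.3%. The share for I3 against C3 was close to that of all transcripts, and no difference from the background was tested.

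The transcript called in C3 against N was ENSRNOT00000076987, whose 3 C3 values were all above its N values of 0 (limma adjusted p 0.0369). No fold is given against a group listed at 0. In I3 its adjusted p against N was 0.121 in limma, although all 3 I3 libraries were above 0, and in H it was 0.411. C3 and I3 did not differ past the threshold for it, where limma gave a log2 difference (I3 minus C3) of -0.35 ± 0.73 (SE) and an adjusted p of 0.93. The call in C3 against N was lost without any one of the N libraries, any one of the C3 libraries, H replicate 2 or I3 replicates 2 or 3, and its adjusted p over all alternatives ranged from 0.013 to 0.117 in limma. With the replicate number as a block it was 0.0777 in limma. Libraries of H and I3 bear on it because all groups share one estimate of the spread.

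The other transcripts that missed a pattern by group in 1 library did not pass. For ENSRNOT00000091068 the adjusted p was 0.0856 for H against N and 0.431 for I3 against H in limma. ENSRNOT00000012321 had adjusted p-values of 0.0958, 0.0593 and 0.314 in H, C3 and I3 against N in limma, and ENSRNOT00000042547 had 0.142, 0.101 and 0.419. Leaving out the library that departed changed these calls, and so did fitting the compared groups alone for the first 2 of these 3 transcripts. ENSRNOT00000091068 was called in H against N without C3 replicate 2 (limma adjusted p 2.36e-07) and in the fit of H and N alone (limma adjusted p 0.00114). It was called in I3 against H without C3 replicate 2 (limma adjusted p 2.8e-07) and with I3 and H alone (limma adjusted p 0.000576). In C3 against H it was called only without C3 replicate 2 (limma adjusted p 8.95e-07). Without I3 replicate 2, ENSRNOT00000012321 was called against N in H, C3 and I3, and ENSRNOT00000042547 in H and C3. Each library left out here held the 0 that broke the pattern, so these calls were favoured by the choice and are a description only. Fitted with N alone, ENSRNOT00000012321 was also called in H and C3, where limma gave adjusted p-values of 0.0187 and 0.00906. In the fits of 2 groups, H for ENSRNOT00000091068 and N for ENSRNOT00000012321 were at 0 throughout and added no spread. The comparisons against N share the N libraries, and a 0 in these enters all of them. ENSRNOT00000081240 was called in no comparison, either in the main fit or under any alternative, that without N replicate 3 included.

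ENSRNOT00000083577 was singled out after its values were seen, because its H libraries stood apart from both reoxygenated groups. It stood at 23.6, 39.7 and 0 FPKM for N, 0, 0.171 and 0 for H, 27.5, 29.0 and 23.0 for C3, and 25.4, 29.7 and 27.8 for I3. All 6 reoxygenated libraries lay above all 3 H libraries, and N replicate 3 lay with H. Its log2 difference from H was 4.70 ± 1.06 in C3 and 4.76 ± 1.06 in I3 (SE), and neither passed, with limma adjusted p at 0.681 and 0.545. Without N replicate 3, which enters these 2 comparisons through the shared spread, both were called. Both were also called when the 2 groups compared were fitted alone (limma adjusted p 0.000862 for C3 and 0.000507 for I3). The transcript was picked for this contrast, and all these fits leave out N replicate 3, which lay with H. The calls are therefore a description and lend no weight to a difference.

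The rule itself made the values of these transcripts vary, since each had to hold both zeros and values of 5 or more. As a description, their residual SD within groups had a median of 1.68 on the log2 scale (range 0.75 to 3.81), beside 0.25 for all transcripts tested. Their median absolute log2 difference between H and N was 1.16 with a median SE of 1.23, beside 0.18 and 0.21 for all transcripts. With its sign, the median log2 difference between H and N was -0.05, and that between I3 and C3 was 0.02. Nothing is read from the sizes, which follow from the choice of transcripts.

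Transcripts whose libraries did not overlap between groups were also counted. Libraries tied at 0 count as overlapping, so the zeros that the rule requires bear on these counts, and the shares of all transcripts stand beside them as background only. Of the on-off transcripts, 15 (12.8%) had no overlap between H and N, beside 15.1% of all transcripts tested. The numbers were 9 (7.69%) for C3 against N, beside 25.9%, and 10 (8.55%) for I3 against N, beside 15.3%. They were 8 (6.84%) for C3 against H, beside 15.6%, 10 (8.55%) for I3 against H, beside 9.85%, and 12 (10.3%) for I3 against C3, beside 15.8%.

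The most abundant on-off transcripts cut across the groups, as all 117 did. ENSRNOT00000051368 had the highest median level and stood at 0 in all 3 N libraries, 0, 151 and 0 FPKM for H, 16.9, 135 and 0 for C3, and 159, 166 and 137 for I3. All I3 libraries were above all libraries of N and C3, but C3 replicate 2, at 135 FPKM, lay just below the lowest I3 library, at 137. H replicate 2, at 151, lay within the range of I3. Its log2 difference between I3 and C3 was 3.52 ± 2.00 (SE; limma adjusted p 0.767), and the adjusted p of I3 against N was 0.238. Fitted with I3 and N alone, the latter was 1.24e-05 in limma, the only alternative under which it was called. The N libraries, all at 0, add no spread to that fit, which also leaves out the split groups H and C3. ENSRNOT00000042411 stood at 0, 107 and 87.2 FPKM for N, 97.9, 0 and 0 for H, 91.4, 0 and 94.3 for C3, and 0, 106 and 88.3 for I3. Every group held libraries at 0 and libraries between 87.2 and 107, and its 7 values above 0 had a coefficient of variation of 8.4%. ENSRNOT00000050213 stood at 56.1, 0 and 0 FPKM for N, 65.5, 68.1 and 0 for H, 65.5, 0 and 79.5 for C3, and 88.3, 0 and 64.4 for I3. Again every group was split. ENSRNOT00000074586 was less steady, at 0, 75.5 and 76.6 FPKM for N, 116, 0 and 0 for H, 0, 0 and 0.89 for C3, and 0, 181 and 0 for I3.

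The 9 transcripts at 0 in 9 libraries were each present in 3 libraries. The most abundant, ENSRNOT00000000477, stood at 63.1 FPKM in N replicate 1, 168 in H replicate 1 and 77.0 in C3 replicate 3. ENSRNOT00000043736 stood at 44.8 FPKM in H replicate 3, 39.99 in C3 replicate 3 and 29.3 in I3 replicate 2. The third by level was ENSRNOT00000025812, described above. In each of these 3 transcripts the libraries above 0 came from more than 1 group. By contrast, ENSRNOT00000023527 had the lowest median level, since 6 of its 9 values above 0 lay between 0.00154 and 0.0602 FPKM, while N replicate 3 and I3 replicates 1 and 3 stood at 11.8, 12.5 and 10.7. Small values of this kind are near 0 without being listed as 0, and with a line at 0.1 in place of exactly 0 the rule took 151 transcripts, of which 0 followed the groups.

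On the first principal component of all transcripts tested, which held 15.1% of the variance, the N libraries lay at -10.1, -60.3 and -35.6. The hypoxic libraries lay there between 3.38 and 21.7. H replicate 3 and I3 replicate 3 stood apart from the other libraries on the second principal component, which held 10.99% of the variance. They lay at 36.4 and 39.4 and the other libraries between -25.7 and 10.2. In 5 of the 117 on-off transcripts these were the libraries with the highest and second-highest values. The largest number for any of the 66 pairs of libraries was 6. ENSRNOT00000085847 stood at 88.3 FPKM in H replicate 3, 118 in I3 replicate 3 and 24.4 in C3 replicate 1, and was at 2.85 or lower elsewhere. ENSRNOT00000050284 stood at 42.9, 48.1 and 13.4 FPKM in the same libraries and was at 2.04 or lower elsewhere. ENSRNOT00000006184 stood at 27.4, 10.1 and 6.04 FPKM there and was at 1.33 or lower elsewhere. Without H replicate 3 and I3 replicate 3, each of these 3 transcripts would have 1 library at 5 or more and would not meet the rule. Without both libraries the call of ENSRNOT00000076987 in C3 against N was lost (limma adjusted p 0.0637).

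Some on-off transcripts had a counterpart that was high in the libraries where they were at 0. This search was added after the values were seen. For each on-off transcript, the one among the other 17253 transcripts was taken whose sum with it varied least over the 12 libraries. In 6 of 117 cases the variance of the sum was under 10% of that of the on-off transcript. The closest pair was ENSRNOT00000000441 with ENSRNOT00000080773. The former stood at 7.60, 0 and 8.27 FPKM for N, 7.57, 0 and 0 for H, 7.01, 0 and 0 for C3, and 3.96, 0 and 0.019 for I3. The latter stood at 0.115, 9.50 and 0.399 FPKM for N, 0.00399, 8.05 and 8.26 for H, 0.267, 8.01 and 8.37 for C3, and 4.44, 7.66 and 8.53 for I3. Each library had one of them near 8 and the other near 0, except I3 replicate 1, where both stood near 4. Their sum was 8.17 ± 0.60 FPKM (SD, n = 12 libraries), with a range of 7.28 to 9.50, and retained 2.63% of the variance.

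In the pair ENSRNOT00000020476 and ENSRNOT00000082005 both were on-off transcripts. The first stood at 21.7 FPKM in N replicate 1, 19.98 and 17.6 in C3 replicates 1 and 2, 17.0 in I3 replicate 3, and 0 in the other 8 libraries. The second stood at 0 in the first 3 of these libraries, at 2.01 in I3 replicate 3, and between 13.1 and 18.5 in the other 8. The sum was 17.3 ± 2.49 FPKM (SD, n = 12), and each group but H held both states. ENSRNOT00000086878 was paired with ENSRNOT00000017381 at a higher level. It stood at 43.0, 42.2 and 0 FPKM for N, 39.7, 0 and 32.7 for H, 14.2, 44.6 and 0 for C3, and 52.1, 0 and 0 for I3, against 0.441, 0.181 and 30.3, then 0.216, 39.9 and 0.36, then 25.9, 0.385 and 35.3, then 0.246, 37.5 and 36.3. The sum was 39.6 ± 5.85 FPKM (SD, n = 12).

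Among the remaining pairs under 10%, ENSRNOT00000066103 with ENSRNOT00000089408 summed to 6.92 ± 0.69 FPKM, ENSRNOT00000067661 with ENSRNOT00000066798 to 4.92 ± 0.60, and ENSRNOT00000089517 with ENSRNOT00000057502 to 6.72 ± 0.92 (SD, n = 12 each). In ENSRNOT00000089517 all 3 I3 libraries were at 0.346 or lower and all 3 H libraries at 4.71 or higher, with C3 replicate 2 and N replicate 1 on the side of I3. Its adjusted p for I3 against H was 0.835 in limma, and 0.0181 with I3 and H fitted alone. The latter fit leaves out the C3 and N libraries just named, so its p is a description only.

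**Figure D5:**
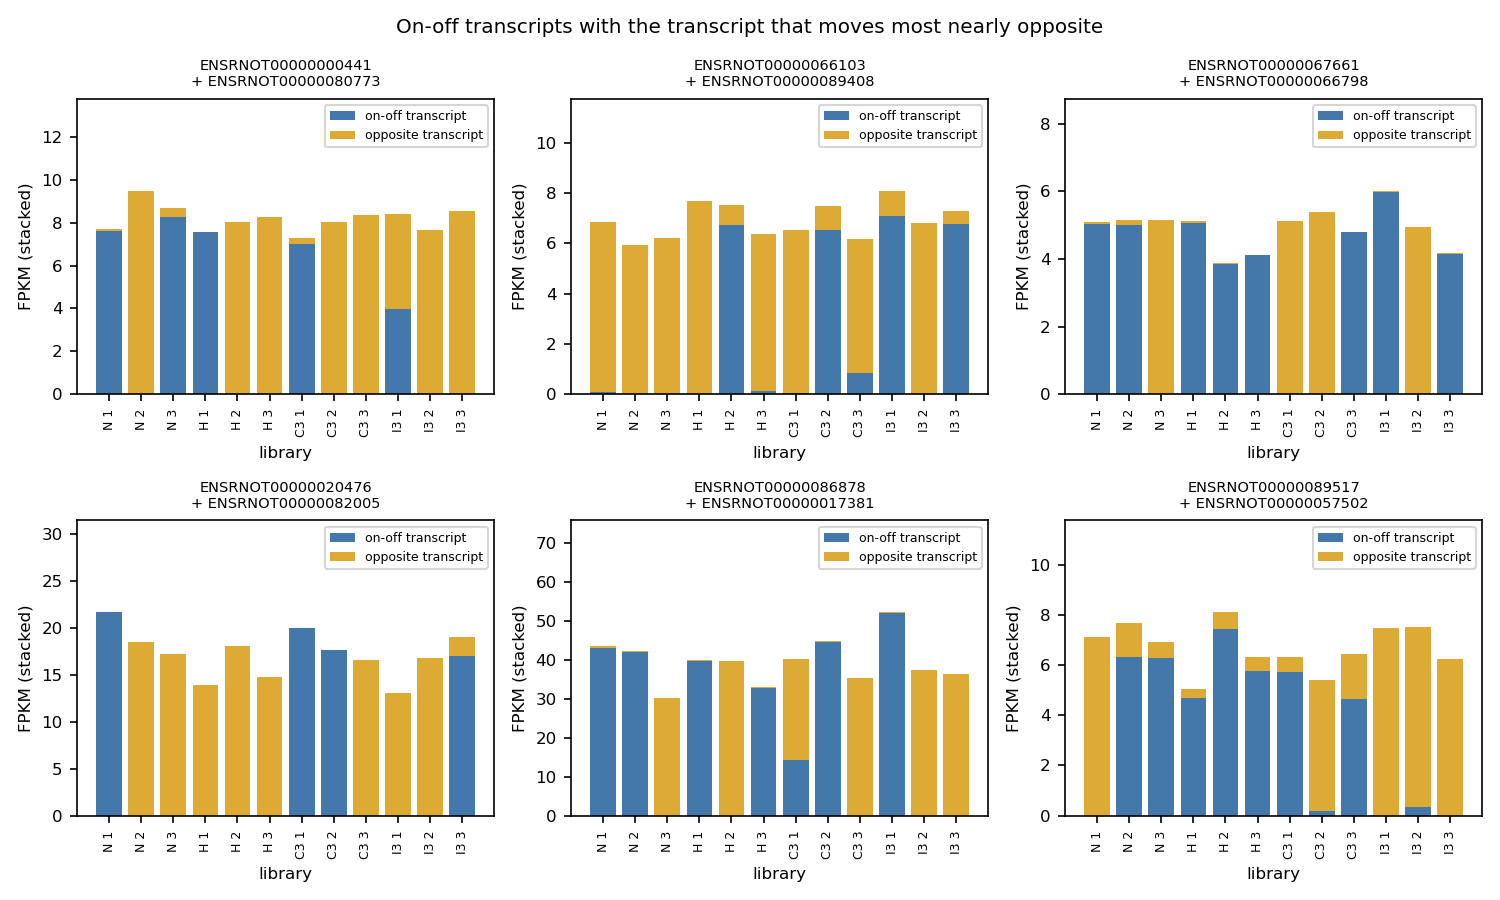
The 6 on-off transcripts (blue) whose sum with another transcript (yellow, stacked on top) kept under 10% of their variance, in FPKM for each of the 12 libraries. The blue part switches between the full level and 0 within groups, while the height of the stack stays in a narrow range, such as 7.28 to 9.50 for the first pair.

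The same search in the other direction found as close matches. In 9 of 117 cases another transcript tracked the on-off transcript so nearly that the variance of their difference was under 10%. The lowest share left was 3.34% in this direction and 2.63% in the opposite one, and the medians over the 117 were 29.3% and 31.3%. Opposite partners were thus not more frequent than parallel ones, and every partner is the best of 17253. ENSRNOT00000088542 was matched by ENSRNOT00000087206. Both were at 0 in N replicate 1, H replicates 2 and 3 and I3 replicate 3, and stood at 4.59 to 7.10 and 3.89 to 6.21 FPKM elsewhere. ENSRNOT00000050284, high in H replicate 3 and I3 replicate 3, was matched by ENSRNOT00000023302, at 36.0 and 56.0 FPKM there and 12.2 in C3 replicate 1. ENSRNOT00000074100 stood at 14.0, 13.4 and 11.7 FPKM in N replicate 1 and I3 replicates 1 and 3 and at 0.81 or lower elsewhere. Its match, ENSRNOT00000013613, stood at 24.6, 24.9 and 26.4 FPKM in these libraries and at 10.1 to 13.0 in the others. Whether the transcripts of a pair belong to the same gene was not tested, since no transcript could be paired with a gene.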

How the data were processed

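Whole-lung RNA of 12 libraries was measured by RNA sequencing. RNA was fragmented, primed at random and given a dUTP second strand, per the labels' protocols; strand use in counting is not given. The submitters' processing notes name cutadapt, HISAT2 2.0.5 and StringTie, without order or settings, and the build hg19, which is human. Which rat build was used is unknown here. The table the authors deposited has no named unit and is taken here as FPKM because of StringTie. TPM of a filtered list cannot be told apart. Depth is unknown: values reach down to 1e-06, and ratios of low values between libraries did not pile up (at most 5.88% of values below 0.2 shared a ratio within 0.02 log2 units, 66 pairs), so whole reads were not recovered.

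Limma 3.58.1 in R 4.3.3 was fitted to log2(FPKM + 1) of the 15435 transcripts that reached 1 or more in 3 or more libraries. The fit had one mean per group, 8 residual degrees of freedom and a mean-variance trend, and p-values were two-sided and Benjamini-Hochberg adjusted over all transcripts tested. The fit was tested on simulated data. No 2 libraries were identical (0 pairs). The members and lists were chosen with earlier results of these data known. Named were transcripts called in a comparison, those 1 library away from following the groups, the 5 most abundant that cut across groups, the 3 most abundant at 0 in 9 libraries and those nearest the threshold. Others were named after their values were seen. Alternatives were a pseudocount of 0.1, other filters, median ratio scaling, no trend, robust moderation, a replicate block, fits of 2 groups, each library left out, and other limits of the rule.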

Additional observations from a re-analysis of the deposited data

How the results depend on the processing

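The number of on-off transcripts was 117 and became 55 with presence set at 10 or more and 435 with presence at 1 or more. With presence at 1 or more, 4 followed the groups. Leaving out each library in turn gave 96 to 106 on-off transcripts, of which 0 to 2 followed the groups. The on-off transcripts called when the 2 groups compared were fitted alone numbered 4 with H and N, 2 with C3 and N, 3 with I3 and N, 1 with C3 and H, 4 with I3 and H and 1 with I3 and C3. Over all transcripts these fits called 43, 44, 16, 14, 26 and 15, in the same order. The cause was not tested. With the replicate block, 0 were called in C3 against N, as without H replicate 3 and I3 replicate 3 together, an alternative chosen after seeing the data. Leaving out each library gave 0 to 2 calls in H against N and in C3 against N, and 0 to 1 in the F test, I3 against N and both comparisons of C3 and I3 with H. Over all transcripts these calls were 19 to 58 in H against N and 21 to 166 in C3 against N. The range was 15 to 53 in the F test and 8 to 29 in I3 against N. It was 0 to 12 in C3 against H and 3 to 12 in I3 against H. The pseudocount, the filters, median ratio scaling, the trend and robust moderation left the number of on-off transcripts called as it was in all 7 tests. The replicate block changed no other count of on-off calls. The labels state no link between equal replicate numbers. Deviations of the 18 pairs of equal number correlated at -0.04 to 0.13, and the best match of 5 of 12 libraries had the same number, so numbers were not taken as a pairing. The p of the zeros per library was 0.0762 to 0.271 (exact permutation test) without each library in turn. No count of reads is known, so whether a 0 reflects depth cannot be told.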
